A study of Homo sapiens with 36 samples.

Results

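The aminoacyl-tRNA synthetases, the enzymes that join each amino acid to its tRNA, are represented by 36 of the 20802 genes measured: 20 encode cytosolic enzymes, with symbols such as GARS or WARS, and 16 encode mitochondrial enzymes, whose symbols end in 2. The members were chosen by gene symbol, with earlier results of these data known. In all, 12102 genes passed the filter on low counts and could be tested. Among them were 35 synthetases, all 20 cytosolic and 15 of the 16 mitochondrial, since PARS2 had too few counts. LoVo, a human colorectal cancer line that is long established and was grown in F-12K medium with serum, was treated for 24 h with a MEK inhibitor at 0.03, 0.1, 0.3, 1, 3, 10, 30, 100, 300 or 1000 nM, with 3 libraries per dose, or with the solvent DMSO, with 6 libraries divided between a pair of sequencing chips. All libraries came from the same line and were made as targeted amplicons from 10 ng of total RNA, so that the level of a gene also depends on how well its amplicon is copied, and levels of different genes are not compared here.

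Each synthetase attaches a single kind of amino acid to its tRNAs at the cost of ATP, and the charged tRNAs feed the ribosome. The nucleus encodes separate sets of these enzymes for the cytosol and for the mitochondrion, but GARS and KARS each serve both places from a single gene, EPRS joins the glutamyl and prolyl enzymes in a single chain, and the cytosolic phenylalanyl enzyme is built of the FARSA and FARSB subunits. Many cytosolic synthetase genes are known targets of ATF4, the transcription factor of the amino acid response, which binds C/EBP-ATF response elements together with C/EBP partners. MEK activates ERK, the last kinase of the MAPK cascade.

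The core of the C/EBP-ATF response element is TGATGNAA on either strand. It lay within 50 bases of an annotated start site in 6 of the synthetase genes whose mRNA was lower with the inhibitor. Promoter windows were at hand for 20 of the genes that fell at 1000 nM. CARS, GARS and TARS each had more than 1 window, with the match in only 1 of them. How many of all genes have a match this near a start site was not counted. Stretches of 40 bases around it are shown to let the element be compared between these genes. They are printed in the direction of transcription, with the match in capitals, from the promoter windows of RefSeq on GRCh38.p14. The stretches lie at chr11:3057402-3057441 (minus strand) for CARS, chr7:30594829-30594868 (plus strand) for GARS, chr9:92293687-92293726 (minus strand) for IARS, chr12:57488048-57488087 (plus strand) for MARS, chr18:57621799-57621838 (minus strand) for NARS and chr5:33440951-33440990 (plus strand) for TARS.
CARS: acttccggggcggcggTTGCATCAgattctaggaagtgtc
GARS: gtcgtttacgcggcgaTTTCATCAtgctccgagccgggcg
IARS: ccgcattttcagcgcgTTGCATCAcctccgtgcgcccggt
MARS: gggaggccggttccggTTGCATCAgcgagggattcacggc
NARS: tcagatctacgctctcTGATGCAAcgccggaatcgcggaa
TARS: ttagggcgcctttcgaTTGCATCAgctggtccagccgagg
In 4 of these genes, CARS, IARS, MARS and TARS, the match read TTGCATCA, and in NARS it read TGATGCAA, the same letters on the other strand. In GARS it read TTTCATCA.

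Whole windows, from 250 bases before to 50 bases after an annotated start, are given for the 3 synthetases with the largest fold change, CARS, GARS and WARS, and for HARS2, the synthetase called higher at 1000 nM, which was added after its values were seen. Where a gene had more than 1 window, the window holding a motif is shown. Capitals mark TGATGNAA in CARS and GARS and GAAANNGAAA, the core of the interferon-stimulated response element, in WARS. The HARS2 window held no motif that was searched. The windows lie at chr11:3057374-3057673 (minus strand) for CARS, chr7:30594628-30594927 (plus strand) for GARS, chr14:100375298-100375597 (minus strand) for WARS and chr5:140691205-140691504 (plus strand) for HARS2.
CARS: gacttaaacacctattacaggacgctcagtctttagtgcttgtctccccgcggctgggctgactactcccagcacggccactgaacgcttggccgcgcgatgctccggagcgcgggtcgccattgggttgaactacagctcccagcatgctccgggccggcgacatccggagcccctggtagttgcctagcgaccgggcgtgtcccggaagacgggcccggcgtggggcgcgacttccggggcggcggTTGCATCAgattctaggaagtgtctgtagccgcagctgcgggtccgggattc
GARS: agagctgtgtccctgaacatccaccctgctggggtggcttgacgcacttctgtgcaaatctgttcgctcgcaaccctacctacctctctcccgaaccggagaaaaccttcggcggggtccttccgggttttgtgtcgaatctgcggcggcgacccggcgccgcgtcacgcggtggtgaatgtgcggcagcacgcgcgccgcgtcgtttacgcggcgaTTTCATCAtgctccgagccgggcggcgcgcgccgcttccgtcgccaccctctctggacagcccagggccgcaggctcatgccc
WARS: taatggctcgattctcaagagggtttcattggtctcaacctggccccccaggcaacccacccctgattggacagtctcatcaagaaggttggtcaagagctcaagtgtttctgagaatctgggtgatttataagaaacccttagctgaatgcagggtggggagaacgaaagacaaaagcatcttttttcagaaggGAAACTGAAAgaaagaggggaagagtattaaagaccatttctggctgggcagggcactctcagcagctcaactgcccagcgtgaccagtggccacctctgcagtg
HARS2: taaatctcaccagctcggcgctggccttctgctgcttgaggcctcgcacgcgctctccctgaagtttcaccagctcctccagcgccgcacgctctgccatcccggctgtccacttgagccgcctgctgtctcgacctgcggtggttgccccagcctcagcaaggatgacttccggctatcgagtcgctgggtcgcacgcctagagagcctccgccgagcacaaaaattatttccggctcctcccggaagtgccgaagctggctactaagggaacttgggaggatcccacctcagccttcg

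Total counts per library ran from 2972186 to 4751839. The inhibitor's activity showed in genes driven by ERK. Of 10 genes of a MAPK activity list, 9 were lower at 1000 nM, against 20.7% of all tested genes. Among the 9 was DUSP6, a phosphatase of ERK, with a log2 fold change of -5.06 (SE 0.196). All 8 epithelial markers were present. The sum of 9 fibroblast markers stood at 41.0 to 42.4 CPM (counts scaled to a common library size) in 1000 nM libraries. In DMSO libraries it stood at 3.28 to 4.51 CPM. Of the 9 markers COL1A2 and FAP were at 0 everywhere, so the rise lay in other markers of the list, which are not named here. The part of these markers in the results was not tested. Endothelial and blood markers summed to at most 1.93 CPM in the libraries of both groups. An earlier account of these data set 3 libraries apart: at 0.1 nM replicate 2, and replicate 1 at both 1 and 1000 nM. Their root mean square difference from the other libraries of their group was 0.405 (0.1 nM), 0.504 (1 nM) and 0.518 (1000 nM) on the log2 scale, while replicate 3 of 1000 nM reached 0.475 and replicate 3 of 30 nM 0.423.

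At 1000 nM most synthetase mRNAs were lower than with DMSO. At a Benjamini-Hochberg adjusted p below 0.05 in edgeR's quasi-likelihood test against both DMSO chips, 25 of 35 synthetases fell, against 20.7% of all tested genes. HARS2 alone was called higher, against 21.2% of all tested genes. Of the cytosolic enzymes 17 of 20 fell and 0 were higher, and of the mitochondrial enzymes 8 of 15 fell. The median log2 fold change was -1.02 for the cytosolic enzymes, -0.53 for the mitochondrial enzymes and 0.01 for all tested genes. In 17 cytosolic and 8 mitochondrial genes every 1000 nM library lay below every DMSO library, an arrangement found in 22.4% of all tested genes. In 1 gene, HARS2, every 1000 nM library lay above every DMSO library, which was so in 22.9% of all tested genes. Counts of all 36 genes together made up 0.326% to 0.341% of each 1000 nM library, against 0.649% to 0.676% of each DMSO library. Counts are shares of a library, so less of an mRNA per cell and fewer cells of a kind cannot be told apart.

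**Figure D1:**
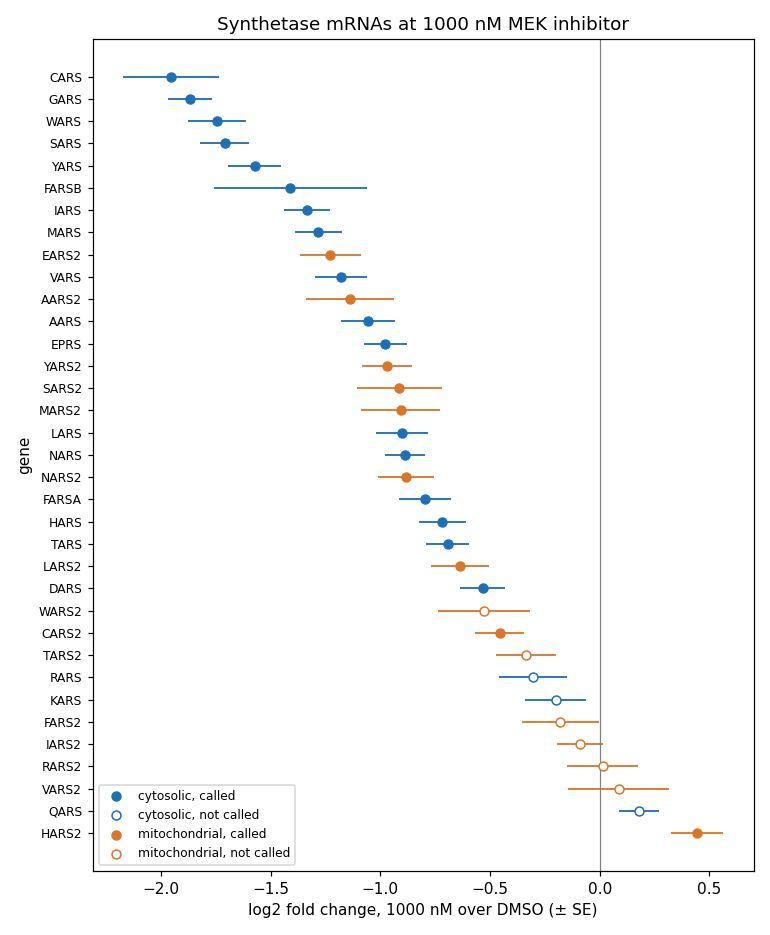
Log2 fold change of each tested synthetase at 1000 nM over DMSO (x axis), with its standard error as a bar and 1 row per gene (y axis). Blue marks cytosolic and orange mitochondrial enzymes, and filled points passed the test. CARS, GARS, WARS, SARS and YARS lie farthest to the left, below -1.5, and HARS2 is the filled point to the right of 0.

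The cytosolic gene with the smallest adjusted p was GARS, which encodes the glycyl enzyme. GARS stood at 119, 129 and 114 CPM in the 1000 nM libraries, against a lowest value of 416, a median of 441 and a highest value of 462 CPM in the 6 DMSO libraries. The groups lay far apart. Its log2 fold change was -1.87 (SE 0.102, edgeR's quasi-likelihood test, adjusted p = 1.3e-20), which leaves 27.4% of the DMSO level.

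SARS, the seryl enzyme, which also charges the tRNA for selenocysteine, measured 108, 143 and 132 CPM at 1000 nM, against 390 to 446 CPM in DMSO libraries, with a median of 420. YARS, the tyrosyl enzyme, measured 54.3, 61.7 and 75.3 CPM at 1000 nM, against 173 to 201 CPM in DMSO libraries, with a median of 194. In both genes the highest treated library was far below the lowest DMSO library. SARS fell by 1.71 (SE 0.111, adjusted p = 2.13e-17) and YARS fell by 1.57 (SE 0.122, adjusted p = 4.68e-15) on the log2 scale by the same test.

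IARS and MARS, the isoleucyl and methionyl enzymes, fell less steeply. IARS measured 346, 270 and 242 CPM at 1000 nM, against 667 to 754 CPM in DMSO libraries, with a median of 728. MARS measured 304, 238 and 272 CPM at 1000 nM, against 614 to 691 CPM in DMSO libraries, with a median of 673. No treated library reached the DMSO range in either gene, and the log2 fold changes were -1.33 for IARS (SE 0.105) and -1.28 for MARS (SE 0.106). WARS, the tryptophanyl enzyme, had 161, 160 and 119 CPM at 1000 nM, against 470 to 533 CPM in DMSO libraries, with a median of 482, and a log2 fold change of -1.74 (SE 0.131).

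CARS, the cysteinyl enzyme, had the largest log2 fold change of all members, -1.96 (SE 0.219, adjusted p = 4.1e-10), and is singled out after its values were seen. It was counted less deeply, with 13 to 37 counts in the 1000 nM libraries, against 71 to 113 counts in the DMSO libraries, and its standard error was larger than that of GARS, SARS, YARS, IARS, MARS or WARS. FARSB, the beta subunit of the phenylalanyl enzyme, had 11 to 27 counts at 1000 nM, against 36 to 59 counts in DMSO, and a log2 fold change of -1.41 (SE 0.349), while its partner subunit FARSA stood at -0.80 (SE 0.117). The other cytosolic genes that fell, VARS, AARS, EPRS, LARS, NARS, HARS, TARS and DARS, had log2 fold changes between -1.18 and -0.53.

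The cytosolic genes QARS, KARS and RARS, for the glutaminyl, lysyl and arginyl enzymes, did not pass the test at 1000 nM. QARS measured 153, 174 and 189 CPM at 1000 nM, against 144 to 161 CPM in DMSO libraries, with a median of 152, and KARS measured 93.4, 67.3 and 67.6 CPM, against 80.9 to 93.7 CPM in DMSO libraries, with a median of 86.9. The groups overlapped in both genes. Their log2 fold changes were 0.18 for QARS (SE 0.090, adjusted p = 0.148) and -0.20 for KARS (SE 0.138, adjusted p = 0.313). Without replicate 1 of 1000 nM both passed, QARS at 0.25 (adjusted p = 0.0460) and KARS at -0.38 (adjusted p = 0.0451). RARS stood at -0.30 (SE 0.153, adjusted p = 0.134) and passed at -0.50 (adjusted p = 0.0147) without replicate 3 of 1000 nM, and it was called lower at 10, 30, 100 and 300 nM, with log2 fold changes between -0.81 and -0.45.

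Among the mitochondrial enzymes, EARS2, YARS2 and NARS2 had the smallest adjusted p values; they charge mitochondrial tRNAs with glutamate, tyrosine and asparagine. EARS2 measured 30.4, 29.0 and 25.6 CPM at 1000 nM, against 54.5 to 71.1 CPM in DMSO libraries, with a median of 67.8. YARS2 measured 40.0, 60.3 and 47.0 CPM at 1000 nM, against 88.2 to 105 CPM in DMSO libraries, with a median of 95.0. NARS2 measured 25.3, 32.5 and 33.3 CPM at 1000 nM, against 52.7 to 62.3 CPM in DMSO libraries, with a median of 55.5. In all of EARS2, YARS2 and NARS2 the groups were apart. The log2 fold changes were -1.23 for EARS2 (SE 0.138), -0.97 for YARS2 (SE 0.113) and -0.88 for NARS2 (SE 0.128). The other mitochondrial genes that fell were AARS2, SARS2, MARS2, LARS2 and CARS2, with log2 fold changes from -1.14 in AARS2 to -0.46 in CARS2.

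RARS2, VARS2, FARS2, IARS2, TARS2 and WARS2 did not pass the test. RARS2 measured 26.7, 22.8 and 22.7 CPM at 1000 nM, against 19.97 to 32.2 CPM in DMSO libraries, with a median of 22.7, and VARS2 measured 16.3, 12.3 and 9.65 CPM, against 8.47 to 16.01 CPM in DMSO libraries, with a median of 11.2. Their groups overlapped, with log2 fold changes of 0.01 for RARS2 (SE 0.161) and 0.09 for VARS2 (SE 0.231), whose signs turned under other settings. FARS2, IARS2, TARS2 and WARS2 lay between -0.53 and -0.09 without passing. TARS2 and WARS2 passed without replicate 1 of 1000 nM, at -0.47 (adjusted p = 0.0171) and -0.76 (adjusted p = 0.0418), and TARS2 also without replicate 1 of 30 nM, at -0.34 (adjusted p = 0.0484). TARS2 passed in 5 further settings and WARS2 in 4, among them the mean of both DMSO groups. PARS2, the prolyl enzyme that failed the filter, had 1 to 2 counts in the 1000 nM libraries, against 2 to 10 counts in the DMSO libraries, too few for a test.

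HARS2, the mitochondrial histidyl enzyme, went the other way. It measured 73.2, 56.2 and 57.9 CPM at 1000 nM, against 38.9 to 50.1 CPM in DMSO libraries, with a median of 46.8, and every treated library was above every DMSO library. The log2 fold change was 0.45 (SE 0.119, edgeR's quasi-likelihood test, adjusted p = 0.00376). At 300 nM it was also called higher, at 0.39 (SE 0.119, adjusted p = 0.0121), and at 100 nM it stood at 0.32 (SE 0.119, adjusted p = 0.0533) with all 3 libraries above the DMSO range, as in 23.3% of all tested genes. The call at 1000 nM rested on replicate 1, the highest library: without it the value was 0.31 (adjusted p = 0.0793), and without the 3 libraries that stood apart it was 0.32 (adjusted p = 0.0586).

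HARS, the cytosolic histidyl enzyme, is the neighbour of HARS2. In RefSeq on GRCh38.p14 the genes run in opposite directions with start sites 85 bases apart, and their promoter windows share 184 bases, chr5:140691321-140691504, which are the last bases of the HARS2 window printed above. HARS measured 49.8, 53.5 and 52.8 CPM at 1000 nM, against 78.4 to 96.4 CPM in DMSO libraries, with a median of 83.4, and its log2 fold change was -0.72 (SE 0.107, adjusted p = 4.63e-07). The mRNAs of this pair thus moved in opposite directions at 1000 nM. Amplicon positions were not used here, and whether reads of similar genes were shared was not tested.

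Across the dose series the first calls were of cytosolic enzymes. At 0.03, 0.1 and 0.3 nM 0 of 35 synthetases were called by edgeR, 0 had an unadjusted p below 0.05 and 0% of all tested genes were called; DESeq2 and limma-voom also called 0 synthetases at these doses. At 1 nM 5 synthetases fell, against 4.02% of all tested genes, and all were cytosolic: CARS, EPRS, SARS, WARS and YARS. This count depended on how DMSO was set: 14 fell against the mean of both DMSO groups and 10 against chip 2 alone or against summed DMSO counts. It also depended on the libraries kept: 11 fell without the 3 libraries that stood apart, which include replicate 1 of 1 nM. At the next dose, 3 nM, 16 fell (6.68% of all tested genes). The count was 20 at 10 nM (13.3% of all tested genes) and 23 at 30 nM (18%). It reached 25 at 100 nM (18.8%), then 27 at 300 nM (23%). None was called higher at 1 or 3 nM, against 3.95% and 6.66% of all tested genes, or at 10 or 100 nM, against 13.5% and 18.4%. The cytosolic number in these counts was 5, 15, 17, 18, 18 and 18 of 20, and the mitochondrial number was 0, 1, 3, 5, 7 and 9 of 15, over the same doses from 1 to 300 nM. Many mitochondrial genes were counted less deeply, which makes an equal change harder to call. FARS2 had 54 to 80 counts and WARS2 49 to 71 counts in the DMSO libraries, against 1281 to 1744 for GARS. The cytosolic CARS and FARSB were low too. The part of depth in these numbers was not tested.

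Calls in the other direction were few. VARS2 was called higher at 30 nM (18% of all tested genes were), with 15.4, 20.7 and 17.0 CPM, and VARS2 and HARS2 at 300 nM (22.1%), where VARS2 had 17.7, 17.5 and 18.02 CPM, against 8.47 to 16.01 CPM in DMSO libraries. At 30 nM the lowest VARS2 library lay within the DMSO range, and at 300 nM every library lay above it, as in 26.1% of all tested genes. The log2 fold change of VARS2 was 0.57 at both doses (SE 0.221 at 30 nM and 0.219 at 300 nM), with -0.02 (SE 0.232) at 100 nM between them. At 30 nM 0 synthetases were called higher without replicate 2 of 30 nM or without any of replicates 1 and 3 of DMSO chip 1 and replicates 1 and 2 of DMSO chip 2. At 300 nM 1 synthetase in place of 2 was called higher without replicate 1 or 3 of 300 nM, any library of DMSO chip 1 or replicate 1 or 2 of DMSO chip 2.

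**Figure D2:**
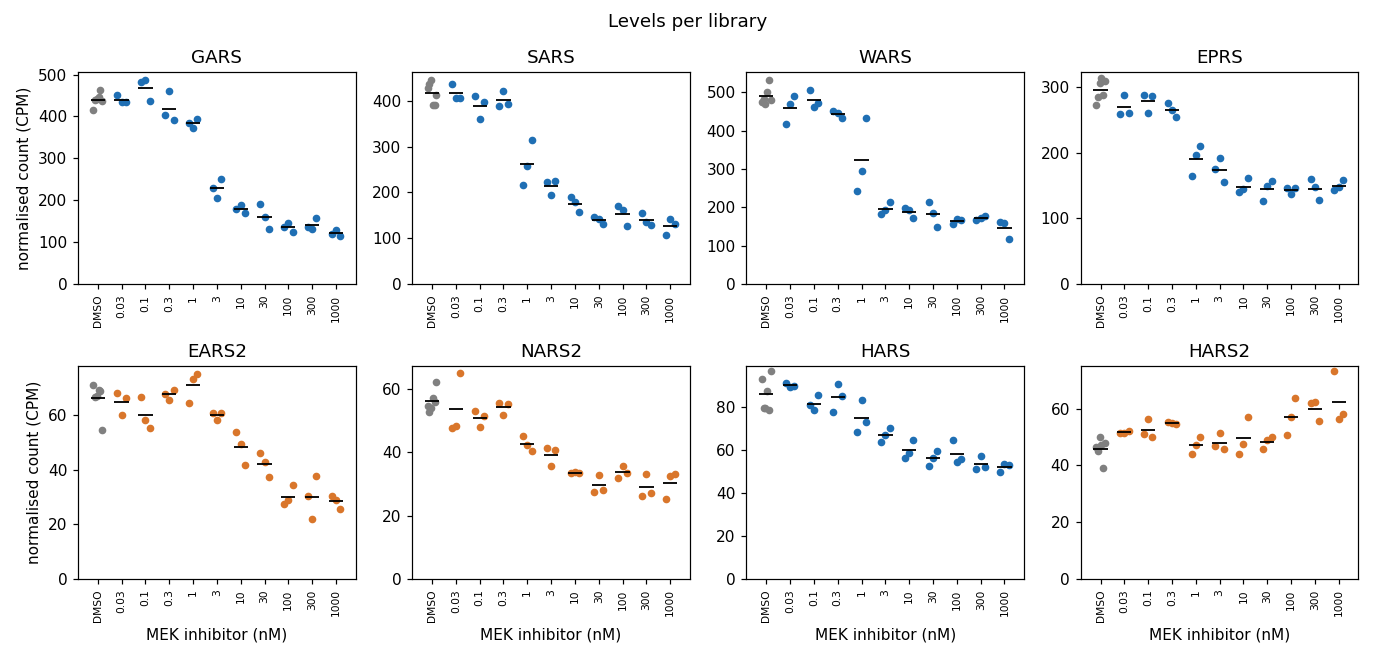
Normalised counts (CPM, y axis from 0) of 8 synthetases in every library, by dose of the inhibitor in nM with DMSO at the low end (x axis). Blue points are cytosolic enzymes, orange mitochondrial and grey DMSO, with the group mean as a bar. GARS, SARS, WARS and EPRS drop between 0.3 and 10 nM, EARS2 between 3 and 100 nM, and HARS2 is highest at the top doses.

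The genes called at 1 nM showed what the lowest active dose did. EPRS measured 164, 196 and 210 CPM at 1 nM, against 274 to 314 CPM in DMSO libraries, with a median of 297. WARS measured 243, 295 and 433 CPM at 1 nM, against 470 to 533 CPM in DMSO libraries, and SARS 216, 258 and 315 CPM, against 390 to 446 CPM. In EPRS, WARS and SARS all 1 nM libraries lay below the DMSO range, as in 10.5% of all tested genes, with the lowest value in replicate 1, the library that stood apart. EPRS fell by 0.63 (SE 0.097, adjusted p = 3.23e-05), SARS by 0.66 (SE 0.107, adjusted p = 0.000153), WARS by 0.59 (SE 0.125, adjusted p = 0.00316) and YARS by 0.50 (SE 0.115, adjusted p = 0.00668) on the log2 scale.

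GARS, with the smallest adjusted p at every dose from 3 nM, was not called at 1 nM. Its means were 440 ± 9.84 CPM in DMSO (SD, n = 3 means of same-numbered libraries), 383 ± 10.4 CPM at 1 nM and 228 ± 22.4 CPM at 3 nM (SD, n = 3 each). They were 179 ± 9.37 CPM at 10 nM, 135 ± 11.6 CPM at 100 nM and 121 ± 7.85 CPM at 1000 nM. EPRS had reached its 1000 nM level by 10 nM, with 296 ± 11.03 CPM in DMSO, 190 ± 23.4 at 1 nM, 148 ± 11.5 at 10 nM and 150 ± 8.17 at 1000 nM. EARS2 had 66.1 ± 4.90 CPM in DMSO and 71.0 ± 5.72 CPM at 1 nM, then 48.2 ± 6.09 CPM at 10 nM and 28.3 ± 2.47 CPM at 1000 nM. EPRS and EARS2, the cytosolic and mitochondrial glutamyl enzymes, stood at 50.8% (EPRS) and 42.7% (EARS2) of the DMSO level at 1000 nM. NARS2 was the earliest mitochondrial gene, called from 3 nM, with 56.2 ± 1.93 CPM in DMSO, 39.3 ± 3.21 at 3 nM and 30.4 ± 4.38 at 1000 nM.

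**Figure D3:**
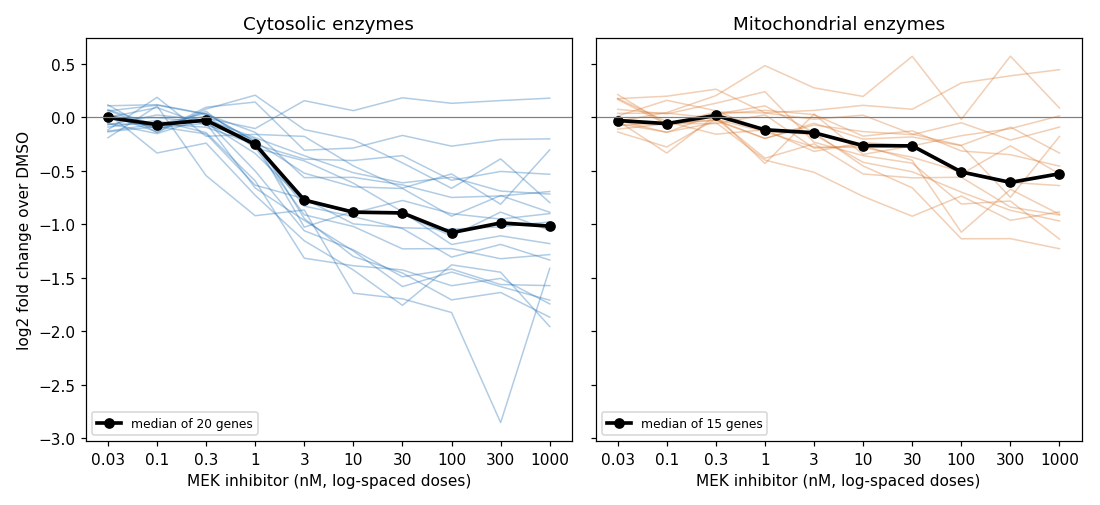
Log2 fold change over DMSO (y axis) at each dose in nM (x axis) for the 20 cytosolic synthetases (left) and the 15 tested mitochondrial ones (right). Thin lines are genes and the black line is their median, which for the cytosolic enzymes stands at -0.25 at 1 nM and -0.77 at 3 nM, and for the mitochondrial enzymes at -0.12 and -0.14. The line that dips to -2.85 at 300 nM is FARSB.

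Comparisons between doses a factor of 10 apart placed the changes in the same range. They contrast no DMSO library, but their spread was estimated over all libraries, DMSO included. At 1 nM over 0.1 nM, 8 cytosolic synthetases fell, against 6.87% of all tested genes, and FARSA was higher (8.16%), at 0.35 (SE 0.111, adjusted p = 0.0256). At 3 nM over 0.3 nM 17 fell (7.1%), 16 of them cytosolic, and at 10 nM over 1 nM 18 fell (8.36%), 16 of them cytosolic. At 30 nM over 3 nM 11 fell (9.14%), and at 100 nM over 10 nM 6 fell (3.35%), which were FARSA, GARS, IARS, VARS, EARS2 and MARS2. Beyond FARSA, 0 synthetases were called higher in these steps, against 6% (3 over 0.3 nM), 7.06% (10 over 1 nM), 9.06% (30 over 3 nM) and 1.78% (100 over 10 nM) of all tested genes. At 300 nM over 30 nM 0 of 35 were called by edgeR (0.331% lower and 0.182% higher over all tested genes), with 6 at an unadjusted p below 0.05, and at 1000 nM over 100 nM 0 of 35 were called (0.00826% lower and 0% higher), with 3 at an unadjusted p below 0.05. GARS fell at 1 nM over 0.1 nM (by 0.29 on the log2 scale) and at each of the next 4 steps, by 0.87 for 3 over 0.3 nM, by 1.10 for 10 over 1 nM, by 0.51 for 30 over 3 nM and by 0.40 for 100 over 10 nM. Between the DMSO libraries of chip 2 and chip 1, 0 synthetases and 0% of all tested genes were called by edgeR, and 0 synthetases had an unadjusted p below 0.05.

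Half-effect doses, fitted to all libraries for each synthetase called at 1000 nM, ordered the members by the dose at which they moved. Among cytosolic enzymes that fell, 15 of 17 were well fitted, with a standard error of log10 dose below 0.2, and their half-effect doses had a median of 1.86 nM and ran from 0.912 nM for EPRS to 7.08 nM for VARS. LARS, WARS, CARS, DARS and AARS followed EPRS at 1.26 to 1.45 nM, and GARS came second to last at 3.39 nM. Neighbours in this order, other than GARS and VARS, did not differ beyond their errors: EPRS spanned 0.729 to 1.14 nM and LARS 0.945 to 1.68 nM at 1 standard error to either side. VARS, with 5.31 to 9.44 nM, stood clear of GARS, with 2.90 to 3.96 nM. Of the 8 mitochondrial genes that fell 4 were well fitted, with 1.91 nM for NARS2, 15.5 nM for YARS2, 22.4 nM for EARS2 and 25.1 nM for AARS2, and a median of 18.9 nM. FARSA, FARSB, SARS2, LARS2, MARS2, CARS2 and HARS2 had wider errors. These doses are descriptions with no test, and share all their libraries. Their errors take the libraries as independent, though same-numbered DMSO libraries varied together, and may be too narrow.

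**Figure D4:**
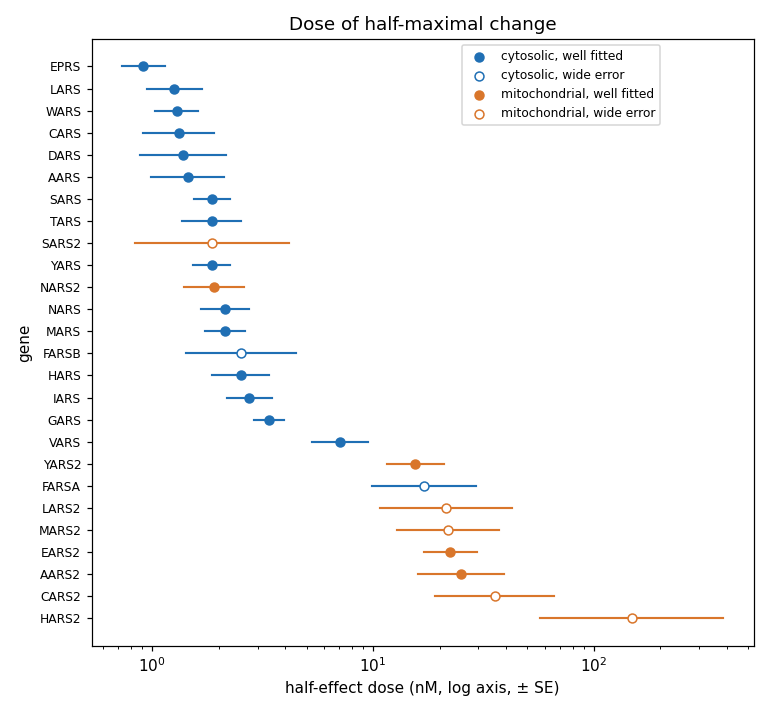
Half-effect dose in nM on a log axis (x axis) for each synthetase called at 1000 nM (y axis), with a bar of 1 standard error to either side. Filled points are well fitted. Well fitted cytosolic genes in blue lie between 0.912 and 7.08 nM, and mitochondrial genes in orange lie above 15 nM except for NARS2 at 1.91 nM and SARS2, less well fitted, at 1.86 nM. The cytosolic FARSA, less well fitted, stands among the mitochondrial genes at 17.0 nM.

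Whether cytosolic enzymes fell more than their mitochondrial partners was tested on the ratio of both counts within each library, which does not depend on library size. GARS, KARS, QARS and DARS had no partner among the members and were in no pair. Of these, QARS and KARS were not called at 1000 nM. The 9 libraries at 100, 300 and 1000 nM, taken as 1 group, were set against 3 DMSO means of same-numbered libraries, for 16 pairs, by two-sided exact permutation tests whose smallest possible p is 0.00909. The p values are unadjusted over the 16 pairs. They also treat single libraries of different doses and averaged DMSO libraries as exchangeable, which the design does not ensure. The ratio was lower in 12 pairs at p below 0.05, higher in 0 and neither in 4. In 9 pairs every treated library was below every DMSO mean, which gives the smallest p. Separation from DMSO means is easier to reach than separation from every single DMSO library. The share of other gene pairs whose ratio shifts in this way was not counted. Of all tested genes 20.7% were called lower and 21.2% higher at 1000 nM, so shifted ratios may be common among other genes too.

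The largest shifts were in FARSB/FARS2 at -1.67, VARS/VARS2 at -1.39 and CARS/CARS2 at -1.23 on the log2 scale. For VARS/VARS2 the log2 ratio was 2.77 ± 0.247 at the high doses (SD, n = 9), against 4.16 ± 0.144 in DMSO (SD, n = 3, exact permutation p = 0.00909). For HARS/HARS2 it was -0.13 ± 0.235 at the high doses (SD, n = 9), against 0.90 ± 0.053 in DMSO (SD, n = 3, exact permutation p = 0.00909). The shift was -1.17 for WARS/WARS2, -1.15 for IARS/IARS2, -0.83 for SARS/SARS2, -0.67 for YARS/YARS2 and -0.50 for TARS/TARS2, all at the same p. Larger p values were found for LARS/LARS2 at -0.34 (exact permutation p = 0.0273), RARS/RARS2 at -0.48 and MARS/MARS2 at -0.39 (exact permutation p = 0.0455 for both).

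The 4 pairs with no detected shift over the 3 highest doses were those of the alanyl, asparaginyl and glutamyl enzymes and of the FARSA subunit. AARS/AARS2 changed by -0.11 (exact permutation p = 0.636), NARS/NARS2 by 0.01 (0.945), EPRS/EARS2 by 0.15 (0.373) and FARSA/FARS2 by -0.22 (0.527). In AARS, NARS and EPRS both partners fell at 1000 nM. At lower doses AARS/AARS2 and EPRS/EARS2 lay below the DMSO libraries, which is given here with no test and after the values were seen. Relative to the DMSO mean, the log2 ratio of EPRS/EARS2 was -0.82, -0.74 and -0.68 in the 1 nM libraries, against -0.22 to 0.34 in the DMSO libraries. That of AARS/AARS2 was -0.71, -0.88 and -0.78 in the 3 nM libraries, against -0.11 to 0.13 in the DMSO libraries. At 1000 nM EPRS/EARS2 had values of 0.06, 0.18 and 0.46, and AARS/AARS2 of 0.66, -0.12 and -0.36. FARSA and FARSB share FARS2 as their partner, so their pairs are not independent, and EPRS/PARS2 could not be tested.

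Of the cytosolic enzymes, 8 belong to the multi-synthetase complex, an assembly held together by scaffold proteins: EPRS, MARS, QARS, RARS, KARS, IARS, LARS and DARS. This division was made after the values were seen. At 1000 nM 5 of the 8 complex members fell, with a median log2 fold change of -0.72, and 12 of the 12 cytosolic enzymes outside it fell, with a median of -1.30, against 20.7% of all tested genes lower; the difference was not tested. QARS, KARS and RARS, the cytosolic genes that did not pass, are all members of the complex. Of its scaffold proteins EEF1E1 (-1.33, SE 0.177) and AIMP2 (-0.72, SE 0.109) fell and AIMP1 stood at -0.09 (SE 0.138, adjusted p = 0.923).

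Genes that act on tRNA before and after charging were read from lists, and their counts at 1000 nM stand against 20.7% of all tested genes lower and 21.2% higher. Of 27 tested genes of tRNA maturation, modification and export 20 fell and 0 were higher, with a median of -0.73, among them XPOT, the tRNA exporter (-1.96, SE 0.108), the pseudouridine synthase PUS1 (-1.90, SE 0.154) and the methyltransferase TRMT1 (-1.35, SE 0.127). Of 10 subunit genes of RNA polymerase III, which transcribes tRNA genes, 9 fell, with POLR3E at -1.22 and POLR3C at -1.26, and POLR3GL, named after its value was seen, was higher at 0.75. Of 9 transcription factors and regulators of this polymerase in the same list only GTF3C5, also named after its value was seen, fell (-0.41, SE 0.146). Of 9 genes for amidation, formylation and editing of charged tRNA 4 fell, including DTD1, a deacylase that removes D-amino acids from tRNA (-1.53, SE 0.195), and the peptidyl-tRNA hydrolase family gene PTRHD1 was higher (0.57, SE 0.104). Of 6 mitochondrial elongation and initiation factors 4 fell, TUFM and TSFM each by 1.08 on the log2 scale, and MTIF3 was higher (0.74, SE 0.116). The cytosolic elongation factors, some of which deliver charged tRNA to the ribosome or move it on, went with neither. Of 6, EEF1B2 fell (-0.65, SE 0.090), EEF1A1 (0.31, SE 0.080) and EEF1A2 (0.55, SE 0.095) were higher and 3 did not pass.

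The amino acid response list, which holds genes of amino acid synthesis and uptake and their regulators but no synthetase, had 18 of 22 tested genes lower and 0 higher at 1000 nM, with a median log2 fold change of -1.71. PSAT1 and ASNS, which make serine and asparagine, and MTHFD2, a mitochondrial folate enzyme, had the smallest adjusted p values, at -2.79 (SE 0.106), -2.49 (SE 0.109) and -2.21 (SE 0.085). ATF4 itself, named after its value was seen, stood at -0.80 (SE 0.095, adjusted p = 3.75e-09). The 18 of 22 stand against 20.7% of all tested genes lower at 1000 nM. At 1 nM 9 of these 22 genes and 5 of 20 cytosolic synthetases were lower, against 4.02% of all tested genes, and at 3 nM 18 and 15, against 6.68%. In a list of MYC and its partners and rivals 1 of 10 was lower and 3 were higher at 1000 nM. MYC itself fell by 2.92 on the log2 scale (SE 0.103), MAX (1.06, SE 0.226) and MXD4 (1.44, SE 0.129) were higher, as was MGA, and 6 did not pass. Of 16 tested interferon response genes 15 were higher and 0 lower, against 21.2% of all tested genes higher, among them GBP2 (2.26), MX1 (1.32) and ISG15 (1.28), whereas WARS, the synthetase known to be induced by interferon, fell.

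Promoter windows were matched for 30 of the 36 members, by current or older symbol. TGATGNAA stood in 8 of 30 genes, AARS, CARS, GARS, IARS, MARS, NARS, TARS and YARS2, and in 4.46% of 27305 RefSeq genes searched in the same way on both strands. The 8 genes were 7 of 16 cytosolic and 1 of 14 mitochondrial members. They were 8 of the 20 matched members that fell at 1000 nM. None of the other 10 matched members had a match; they are the 9 tested members that did not fall and PARS2, which was not tested. Of the 5 genes called at 1 nM, CARS had a match, SARS, EPRS and WARS had none in these windows, and YARS had no window. CACGTG, the E-box bound by MYC and its partners, stood in 4 of 30 genes (CARS2, EARS2, IARS and MARS2), against 8.77% of all genes, and GAAANNGAAA in EARS2 and WARS, against 4.38%. A match is a description of these letters and not a measured binding site.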

How the data were processed

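Expression was measured by amplicon sequencing (Ion AmpliSeq, Ion Torrent) in 36 LoVo libraries of 12 groups, 18 libraries per pool, per the labels' protocols. The authors deposited whole-number counts per gene with no normalization; the submitters' processing notes name the build hg19; no aligner or counting tool is given in the sources used here. Single files and the series matrix were identical. The 10 spike-in rows held 0 counts and were left out.

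Members and gene lists were chosen with earlier results of these data known. Tests used edgeR 4.0.16 (R 4.3.3): filterByExpr, TMM scaling and a robust quasi-likelihood fit of all libraries with 12 groups (24 residual degrees of freedom), which was tested on simulated data. Every dose was compared with DMSO chip 1 and with DMSO chip 2. The larger p received Benjamini-Hochberg adjustment across the 12102 tested genes, and a call needed an adjusted p below 0.05 and the same sign against both. Fold changes refer to the average of the DMSO groups and carry the larger standard error. CPM uses TMM library sizes. Pair ratios used a prior count of 1. Half-effect doses came from least squares fits of a saturating curve with a slope of 1 to log2 CPM, with DMSO as dose 0. Alternatives used DESeq2 1.42.0 and limma 3.58.1 (voom). Curve fits and permutation tests used scipy 1.17.1 and numpy 2.4.6 in Python 3.11.15, with pandas 2.3.3; figures used matplotlib 3.10.9.

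Values of each 1000 nM library, with the DMSO range, are given by rule. The rule takes the 5 cytosolic and 3 mitochondrial members with the smallest adjusted p at 1000 nM. It also takes members called against most of their class and 2 members of each class with the fold change nearest to 0. Up to 4 members called at the lowest dose with calls are described at that dose, YARS by its fold change alone. Up to 3 members of each other list are named, by adjusted p. A gene that this rule takes from these other lists is not reported here. Genes outside this rule were named after their values were seen.

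Total counts per library had a median of 3952427, with no correction for repeated amplification of a molecule. DMSO libraries of chip 1 and chip 2 with equal numbers varied together (mean correlation 0.118 of their deviations), so DMSO means are over 3 averages. The labels do not say how cultures were separated, so p-values measure only the spread between these samples, which may be technical. The chip of treated libraries is not given. Promoter sequences are from RefSeq on GRCh38.p14; the counts carry no coordinates.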

Additional observations from a re-analysis of the deposited data

How the results depend on the processing

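The counts of lower synthetases at 3 to 1000 nM stayed within 1.5 times of those reported in all 49 settings, 25 to 28 at 1000 nM, and the cytosolic and mitochondrial medians there stayed between -1.09 and -0.97 and between -0.63 and -0.42. At 1 nM, where 5 fell, 10 did with DMSO chip 2 alone, 10 with DMSO counts summed over chips, 14 against the mean of both DMSO groups, 11 without the 3 libraries that stood apart, and 4 to 6 leaving out single libraries. At 100 nM 1 synthetase in place of 0 was called higher with upper quartile scaling, only the libraries compared, either DMSO chip alone, the mean of the DMSO groups, summed DMSO or without the 3 libraries, and 0 to 1 leaving out single libraries. Against the mean of the DMSO groups 2 were higher at 30 nM and 2 at 1000 nM. With no filter 1 was higher at 300 nM. Leaving out single libraries gave 0 to 1 higher at 30 nM and 1 to 2 at 300 nM. RARS2 at 1000 nM, 0.01 as reported, was -0.10 with DMSO chip 1 alone, -0.024 with summed DMSO, -0.024 with at least 1 CPM in 3 libraries, -0.014 with no filter and -0.068 without the 3 libraries. Leaving out single libraries gave -0.074 to 0.098 for RARS2 and -0.14 to 0.26 for VARS2, which was -0.13 without the 3 libraries. The cause was not tested. At 1000 nM TARS2 passed with DMSO chip 1 alone (adjusted p = 0.0209), the mean of the DMSO groups (0.0141), summed DMSO (0.0178), at least 1 CPM in 3 libraries (0.0438) and without the 3 libraries (0.0156). WARS2 passed with DMSO chip 2 alone (0.00586), the mean (0.0135), summed DMSO (0.0213) and without the 3 libraries (0.0234). QARS passed with the mean (0.0452) and without the 3 libraries (0.0149), KARS without the 3 libraries (0.0109), and RARS with no filter (0.0427) and the mean (0.0499). MARS/MARS2 missed the threshold with a prior count of 0.25 (exact permutation p = 0.0636), and LARS/LARS2 and RARS/RARS2 with 300 and 1000 nM only (exact permutation p = 0.0714 for both); 10 to 12 pairs were lower. Median half-effect doses lay between 1.78 and 1.95 nM and between 15.6 and 22.4 nM. Of 20 comparisons of a dose with a DMSO group, 0 had same-numbered libraries that correlated over 0.1 in every pair. The DMSO groups of chip 1 and chip 2, which varied together, missed this limit too, with a lowest correlation of 0.0956. The limit therefore cannot show that doses and DMSO were unpaired. With the number as a replicate block 25 synthetases fell at 1000 nM, and 5044 in place of 5064 genes were called. Counts of PARS2, CARS, FARSB, VARS2, FARS2, WARS2, AARS2, RARS2 and MARS2 were low, which limits what could be detected in them.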
